A study of Mus musculus with 9 samples.

Results

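Odf1, Odf2, Odf3, Odf4, Akap3, Akap4, Ropn1, Ropn1l, Cabyr and Spa17 encode proteins of the outer dense fibres and the fibrous sheath, which surround the axoneme of the sperm tail. These 10 genes were chosen with earlier results of these data known. By name, with a rule that uses no measured value, they were taken out of 55401 genes in the deposited count table. They were followed through acRIP-seq of mouse testis, in which poly(A) RNA is incubated with beads carrying an antibody against N4-acetylcytidine (ac4C), an acetylated cytidine that NAT10 places on RNA, and the recovered RNA is sequenced. The 9 libraries came from the testes of wild-type male mice, which the methods give as the ICR strain, and comprised 3 of input RNA without precipitation, 3 of RNA pulled down with a rabbit IgG control and 3 of RNA pulled down with the antibody against ac4C (acRIP). All 3 groups held RNA selected on oligo(dT)25 beads, and the methods add a β-globin probe that carries ac4C ahead of the pull-down. Smart-seq2 was used for the libraries, so that reverse transcription is primed from the poly(A) tail and the cDNA is amplified. The age of the testis donors, the number of mice and whether the 3 libraries of a group were separate precipitations are not given in the sources used here, so the p-values measure the spread between libraries, which may be technical.

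Outer dense fibres are stiff protein rods that run along the axonemal doublets in the midpiece and principal piece of the sperm tail. The fibrous sheath encloses the principal piece with longitudinal columns and circumferential ribs, and it carries A-kinase anchoring proteins that hold protein kinase A together with enzymes of sperm glycolysis. The genes of both structures are transcribed in male germ cells, mostly in haploid spermatids, and many of their mRNAs are stored before the tail is built.

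Total counts on genes lay between 22023925 and 31340090 in input, between 14647542 and 18786779 in IgG and between 16025779 and 18639134 in acRIP. Genes with a count numbered 28552 to 29642 in input, 26204 to 26874 in IgG and 22206 to 22402 in acRIP. The part of this difference in the shares of lower genes given below was not tested. Among counts of 1 to 20, between 81.9% and 84.3% were even. Marker transcripts of spermatids were abundant, though sums over unlike genes do not measure the share of cells. The 6 spermatid markers (protamines, transition proteins, Acrv1 and Izumo1) summed to between 16950 and 19250 scaled CPM (counts per 1000000 after TMM scaling) in input, between 19940 and 20610 in IgG and between 20320 and 22210 in acRIP, although Izumo1 among them fell (177 to 194 in input, 105 to 118 in IgG, 82.7 to 84.7 in acRIP). The sums for spermatocytes (6 markers, 889.6 to 1066), spermatogonia (6, 72.06 to 109.8), Sertoli cells (6, 656.9 to 867; Rhox5 was at 0), Leydig cells (6, 926.4 to 1094), peritubular cells (4, 41.51 to 63.67) and epididymis (6, 10.46 to 30.84) stayed far below that of spermatids in every library. The epididymis sum was 10.46 to 13.41 in input and IgG and 29.49 to 30.84 in acRIP, where Rnase10 made up nearly all of it, Crisp1 had at most 0.386, and Lcn5 and Adam28 were at 0 in all libraries. Peritubular markers summed to 41.51 to 43.41 in input and 55.55 to 63.67 in the precipitated groups. The part of these markers in the results was not tested. The 3 macrophage markers summed to between 10.8 and 14.95 in input and IgG and between 1.117 and 2.704 in acRIP. Loci like ribosomal RNA rose from between 6487 and 7238 in input to between 57150 and 62120 in IgG and between 109000 and 123700 in acRIP. With these loci left out before scaling, Odf1 stood at log2 fold changes of 2.80 and Akap4 at -1.38 in acRIP over input, and the genes higher than IgG numbered 5 in place of 3.

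Odf1 transcripts were 6.94-fold more abundant in acRIP than in input, and Akap4 transcripts were 2.62-fold less abundant, the highest and the lowest change among the 10 genes. The IgG control carried most of both differences, since Odf1 was already 5.20-fold higher and Akap4 2.26-fold lower in IgG than in input. Between acRIP and IgG the 10 genes differed by at most 1.34-fold. The values are scaled CPM, the tests are edgeR's quasi-likelihood test with Benjamini-Hochberg adjustment over the 22510 genes tested, and a gene passed at an adjusted p under 0.05.

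In IgG against input, 3 of the 10 genes passed as higher (Odf1, Ropn1l and Spa17) and 7 as lower, while 25.9% of all tested genes passed as higher and 26.0% as lower. In acRIP against input, the same 3 genes passed as higher and the same 7 as lower, beside 32.0% and 40.3% of all tested genes. In acRIP against IgG, 3 genes passed as higher (Odf1, Odf3 and Spa17), 4 as lower (Odf4, Akap3, Akap4 and Cabyr) and 3 did not pass (Odf2, Ropn1 and Ropn1l), beside 26.4% and 37.6% of all tested genes. The median log2 fold change of the 10 genes was -0.27 in IgG over input, where that of all tested genes was -0.01. It was -0.31 in acRIP over input, where that of all tested genes was -0.10, and 0.04 in acRIP over IgG, where that of all tested genes was -0.09. The 3 comparisons share libraries, so they are set side by side and are not independent of each other. The count against IgG depended on scaling and on 1 library, since 5 genes passed as higher, with Odf2 and Ropn1l added, under DESeq2, under relative log expression or upper quartile factors, without IgG replicate 1 and without acRIP replicate 3.

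**Figure D1:**
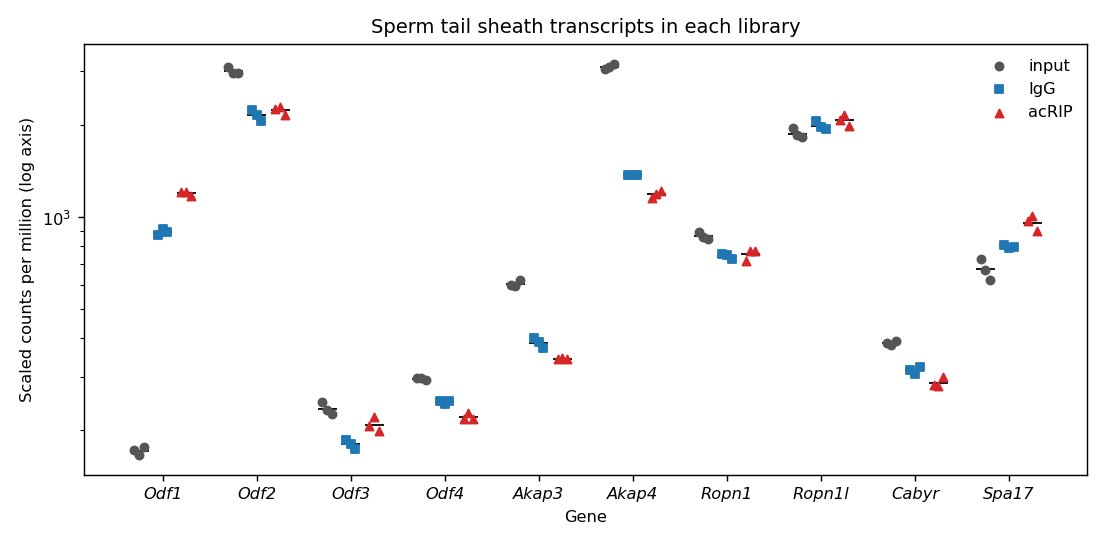
Scaled CPM (log axis) of the 10 genes in each of the 9 libraries, with input in grey circles, IgG in blue squares, acRIP in red triangles and a line at each group mean. Odf1 climbs from input to IgG to acRIP, Akap4 and Akap3 descend in the same order, and Ropn1l stays between 1822 and 2142 in every library.

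The outer dense fibre genes moved in different directions. Odf1 (ENSMUSG00000061923.4, chr15:38219203-38226735, plus strand of mm10) encodes a cysteine-rich fibre protein that is a main component of the rods. Its mRNA has a short coding sequence of 747 bases in 2 exons. The 30 coding bases richest in cytidine, the base that ac4C modifies, lie in exon 2 of 2 at chr15:38226463-38226492 and hold 18 cytidines, shown in capitals. The corresponding window of Odf2, which also holds 18 cytidines, lies in exon 21 of 21 at chr2:29930628-29930657, and both are shown because their genes moved in opposite directions against input. Sequences are from GENCODE vM21 transcripts, 5′ to 3′.

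Odf1: CCCCtgCagCCCCtgtgCCCCCtgCggCCC
Odf2: CtCaCCCatCCgCtCCCgatCgCCCCCtgC

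Odf1 had 173, 166 and 177 scaled CPM in the input libraries. It had 874, 914 and 893 in the IgG libraries. It had 1206, 1207 and 1168 in the acRIP libraries. All acRIP libraries lay above all IgG libraries, which lay above all input libraries. Odf1 was higher in IgG than in input by 2.38 on the log2 scale (SE 0.04, adjusted p = 1.29e-31) and higher in acRIP than in input by 2.79 (SE 0.04, adjusted p = 1.84e-33). These differences stood at the 96.3 and the 96 percentile of all tested genes. The difference between acRIP and IgG was 0.42 (SE 0.03, adjusted p = 1.13e-11), at the 75.6 percentile. The raw counts behind these values were 3751 to 5523 in input, 12864 to 17254 in IgG and 18740 to 21608 in acRIP.

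Odf2 (ENSMUSG00000026790.19, chr2:29889221-29931746, plus strand) encodes a coiled-coil protein of the fibres that is also known at centrosomes, and 25 transcripts are annotated for it. It had 3079.5, 2938 and 2945 scaled CPM in input. It had 2232, 2154 and 2056 in IgG. It had 2246, 2287 and 2155 in acRIP. Input libraries were the highest, and the libraries of the 2 precipitated groups overlapped. Odf2 was lower than input by a log2 fold change of -0.48 in IgG (SE 0.03, adjusted p = 8.95e-15) and of -0.42 in acRIP (SE 0.03, adjusted p = 1.25e-13), and its log2 fold change between acRIP and IgG was 0.05 (SE 0.03, adjusted p = 0.125).

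Odf3 (ENSMUSG00000025482.11, chr7:140847805-140851018, plus strand), a small fibre-associated protein gene, had 247, 233 and 227 scaled CPM in input, 186, 181 and 174 in IgG, and 207, 221 and 199 in acRIP. The acRIP libraries lay between the other groups without overlap. Odf3 was lower in IgG than in input by a log2 fold change of -0.38 (SE 0.05, adjusted p = 3.3e-08), lower in acRIP than in input by -0.17 (SE 0.05, adjusted p = 0.00194) and higher in acRIP than in IgG by 0.21 (SE 0.05, adjusted p = 0.000322). Odf4 (ENSMUSG00000032921.13, chr11:68921835-68927081, minus strand), which encodes a membrane protein of the tail, had 297, 296 and 293 scaled CPM in input, 250.1, 244 and 250.4 in IgG, and 218, 228 and 217 in acRIP. It descended from input to IgG to acRIP with no overlap. Its log2 fold changes were -0.25 in IgG over input (SE 0.04, adjusted p = 3.58e-06), -0.42 in acRIP over input (SE 0.04, adjusted p = 1.11e-10) and -0.17 in acRIP over IgG (SE 0.04, adjusted p = 0.000782).

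The genes of both anchoring proteins of the fibrous sheath fell in the precipitated RNA. Akap4 (ENSMUSG00000050089.13, chrX:7067519-7078609, plus strand) encodes the most abundant protein of the sheath, an anchor of protein kinase A. Its cytidine-richest coding window lies in exon 5 of 6 at chrX:7076003-7076032 and holds 13 cytidines, against 14 to 18 in the other 8 genes whose windows were read. It is shown as the counterpart of the Odf1 window.

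Akap4: CCCtCaaatCCtgCaaCCaaatCtCCtagC

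Akap4 had 3036, 3079 and 3166 scaled CPM in input. It had 1365, 1371 and 1370.5 in IgG. It had 1152, 1183 and 1213 in acRIP. Its libraries descended from input to IgG to acRIP with no overlap, the reverse of the order of Odf1. Akap4 was lower than input by a log2 fold change of -1.18 in IgG (SE 0.03, adjusted p = 4.78e-26) and of -1.39 in acRIP (SE 0.03, adjusted p = 6.21e-28). The IgG value stood at the 7.1 percentile of all tested genes and the acRIP value at the 18.7 percentile. Against IgG, the log2 fold change in acRIP was -0.21 (SE 0.03, adjusted p = 2.35e-07), at the 43.5 percentile and so near the middle of all tested genes. In the same comparison Akap3, Odf4 and Cabyr, also lower, stood at the 45.4, 45.7 and 47.5 percentile. Odf3 and Spa17, both higher, stood at 67.2 and 69.7.

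Akap3 (ENSMUSG00000030344.11, chr6:126853098-126874308, plus strand) encodes a second kinase anchor, which is laid down in the ribs early in sheath assembly. It had 596, 593 and 623 scaled CPM in input, 401, 388 and 373 in IgG, and 343, 344 and 342 in acRIP. The 3 groups descended without overlap, and the acRIP libraries were nearly identical. Its log2 fold changes were -0.64 in IgG over input (SE 0.04, adjusted p = 7.87e-16), -0.81 in acRIP over input (SE 0.04, adjusted p = 1.16e-18) and -0.17 in acRIP over IgG (SE 0.04, adjusted p = 0.000203).

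**Figure D2:**
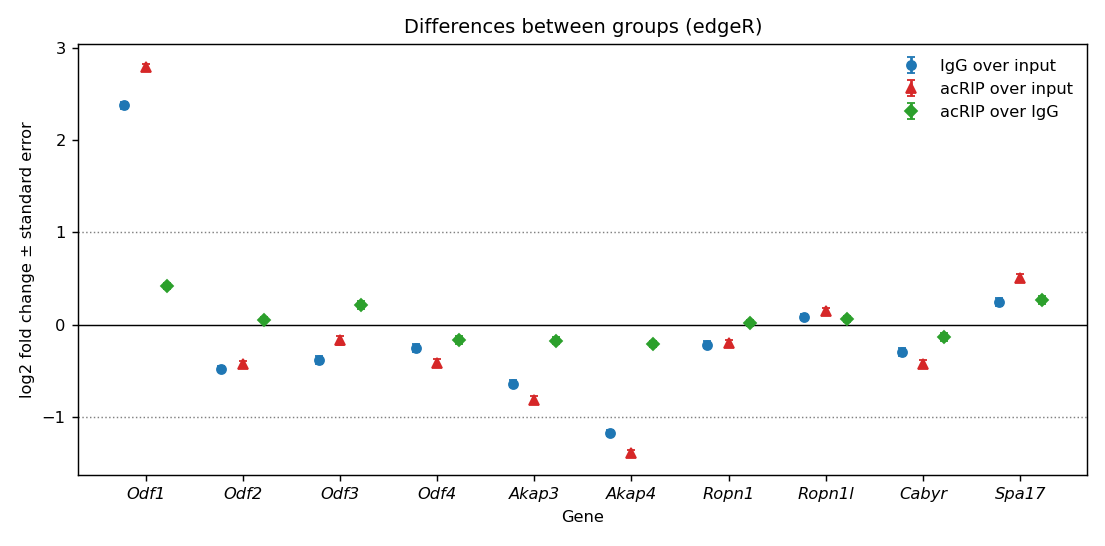
Log2 fold change with its standard error for the 10 genes in IgG over input (blue circles), acRIP over input (red triangles) and acRIP over IgG (green diamonds), with dotted lines at a fold of 2. Odf1 lies above the upper line and Akap4 below the lower line against input, and all 10 values of acRIP over IgG lie between the lines.

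Ropn1, Ropn1l, Cabyr and Spa17 encode proteins with a domain like the docking domain of the regulatory subunit of protein kinase A, by which they bind to anchoring proteins of the tail. They changed less against input than Odf1 and Akap4. Ropn1 (ENSMUSG00000022832.11, chr16:34649921-34678618, plus strand), which encodes ropporin, had 894, 856 and 847 scaled CPM in input, 757, 750.1 and 725 in IgG, and 714, 773 and 772 in acRIP. Input libraries were the highest and the other groups overlapped. Its log2 fold changes were -0.22 in IgG over input (SE 0.04, adjusted p = 5.05e-06), -0.20 in acRIP over input (SE 0.04, adjusted p = 1.05e-05) and 0.02 in acRIP over IgG (SE 0.04, adjusted p = 0.697).

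Ropn1l (ENSMUSG00000022236.10, chr15:31441211-31453737, minus strand), which encodes a close relative of ropporin also found in radial spokes, had 1945, 1843 and 1822 scaled CPM in input, 2057, 1959.6 and 1928 in IgG, and 2076, 2142 and 1986 in acRIP. The acRIP libraries lay above the input libraries, and the IgG libraries overlapped both. Its log2 fold changes were 0.15 in acRIP over input (SE 0.03, adjusted p = 0.000195), 0.08 in IgG over input (SE 0.03, adjusted p = 0.0312) and 0.06 in acRIP over IgG (SE 0.03, adjusted p = 0.0951). The small difference between IgG and input depended on the processing and on single libraries. Its adjusted p was 0.169 with library totals, 0.131 with no filter on low counts and 0.113 with ribosomal RNA-like loci left out, so that 2 genes and not 3 passed as higher in IgG than in input. It was 0.175 without input replicate 2, 0.107 without input replicate 3 and 0.118 without IgG replicate 1, and with upper quartile factors the log2 fold change turned to -0.01. Ropn1l transcripts were the most dense in the letters CNCAGNNC, a looser form of the testis motif that the study derived from these libraries, with 7 matches or 7.32 per 1000 bases of transcript. The 3 matches within the coding sequence are shown in capitals because Ropn1l stood at the 99.8 percentile of coding genes for this density. They lie on the minus strand at chr15:31451106-31451135 (exon 2), chr15:31449032-31449061 (exon 3) and chr15:31443330-31443359 (exon 4). Ropn1l in acRIP differed from IgG by under 1.05-fold with TMM scaling, and its log2 fold change was 0.11 with upper quartile factors. Whether the density bears on recovery was not tested.

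Ropn1l exon 2: cagaagactgaCACAGGCCtgacccaggga
Ropn1l exon 3: cagtagaaaagCTCAGAACgatcctggagc
Ropn1l exon 4: tctggactggaCCCAGAACtcccggccgtg

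Cabyr (ENSMUSG00000024430.14, chr18:12740322-12755260, plus strand), which encodes a calcium-binding protein of the sheath, had 386, 379 and 392 scaled CPM in input, 314, 306 and 322 in IgG, and 281, 279 and 299.7 in acRIP. The groups descended without overlap. Its log2 fold changes were -0.30 in IgG over input (SE 0.04, adjusted p = 1.86e-07), -0.43 in acRIP over input (SE 0.04, adjusted p = 5.05e-11) and -0.13 in acRIP over IgG (SE 0.04, adjusted p = 0.00518). With upper quartile factors the last of these no longer passed (adjusted p = 0.0685).

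Spa17 (ENSMUSG00000001948.10, chr9:37603290-37613722, minus strand), which encodes a sperm surface and sheath protein, had 728, 668 and 623 scaled CPM in input, 806, 791 and 793 in IgG, and 965, 1005 and 899 in acRIP. The groups rose from input to IgG to acRIP without overlap, the same order as Odf1. Its log2 fold changes were 0.24 in IgG over input (SE 0.04, adjusted p = 1.34e-05), 0.51 in acRIP over input (SE 0.04, adjusted p = 3.6e-12) and 0.26 in acRIP over IgG (SE 0.04, adjusted p = 3.42e-06). Spa17 shares 391 exon bases with Siae on the opposite strand, which had 272 to 548 counts per library. Since the use of strand in counting is not given in the sources used here, reads from the shared bases cannot be told apart.

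Only Odf1 and Akap4 passed both an adjusted p under 0.05 and a fold over 2, Odf1 higher and Akap4 lower, in IgG against input and in acRIP against input. Of all tested genes, 13.5% passed as higher and 7.22% as lower by this rule in IgG against input, and 17.7% and 22.9% did so in acRIP against input. In acRIP against IgG, 0 of the 10 genes passed it in either direction by edgeR or DESeq2, beside 11.5% of all tested genes as higher and 20.9% as lower. By edgeR without the fold, the 7 genes with an unadjusted p under 0.05 also passed at an adjusted p under 0.05. They were 3 higher and 4 lower, beside 26.4% and 37.6% of all tested genes. The study defined an ac4C(+) transcript by its ratio in acRIP to both input and IgG, taken here as a ratio of FPKM + 1 over 2 with an unadjusted limma p under 0.05 against both groups. FPKM is the count scaled to the length of the merged exons and to the total count on genes. By this rule 0 of the 10 genes passed, beside 1.97% of the 35699 genes with any count. Odf1 and Spa17 had an unadjusted p under 0.05 with ratios above 1 against both groups. The share of all genes at this looser rule was not computed. Odf1 had a ratio of 6.53 to input and of 1.29 to IgG, and Spa17 had ratios of 1.35 and 1.16. At the other end Akap4 had ratios of 0.362 and 0.835.

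Ratios of counts within a library do not depend on any scaling between libraries. The library contained 17.58, 18.54 and 17.86 Akap4 counts for each Odf1 count in input. The same ratio was 1.562, 1.5 and 1.534 in IgG, and 0.9549, 0.9803 and 1.039 in acRIP. Akap4 counts far outnumbered Odf1 counts before precipitation, and the counts of both genes were close to each other in acRIP. These counts are not scaled to length, and the merged exons span 3027 bases in Akap4 and 1105 in Odf1. Per length, Akap4 stood at 1047 FPKM in input and 379 in acRIP, and Odf1 at 159.5 and 1047. The ratio of Odf2 to Odf1 fell from 17.4 ± 0.666 (SD, n = 3) in input to 2.40 ± 0.133 in IgG and 1.87 ± 0.0256 in acRIP. The ratio of Akap4 to Akap3 fell from 5.12 ± 0.0625 to 3.54 ± 0.135 and 3.45 ± 0.0947, and its last 2 values lay within the spread of their libraries. Spa17 gained on Cabyr, with 1.75 ± 0.147 in input, 2.54 ± 0.0664 in IgG and 3.35 ± 0.312 in acRIP. Ropn1l gained on Ropn1, with 2.16 ± 0.0132 in input, 2.66 ± 0.0527 in IgG and 2.75 ± 0.17 in acRIP, where the last 2 groups overlapped. The ratio of Odf3 to Odf4 was 0.797 ± 0.0302 in input, 0.727 ± 0.0271 in IgG and 0.945 ± 0.0284 in acRIP.

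**Figure D3:**
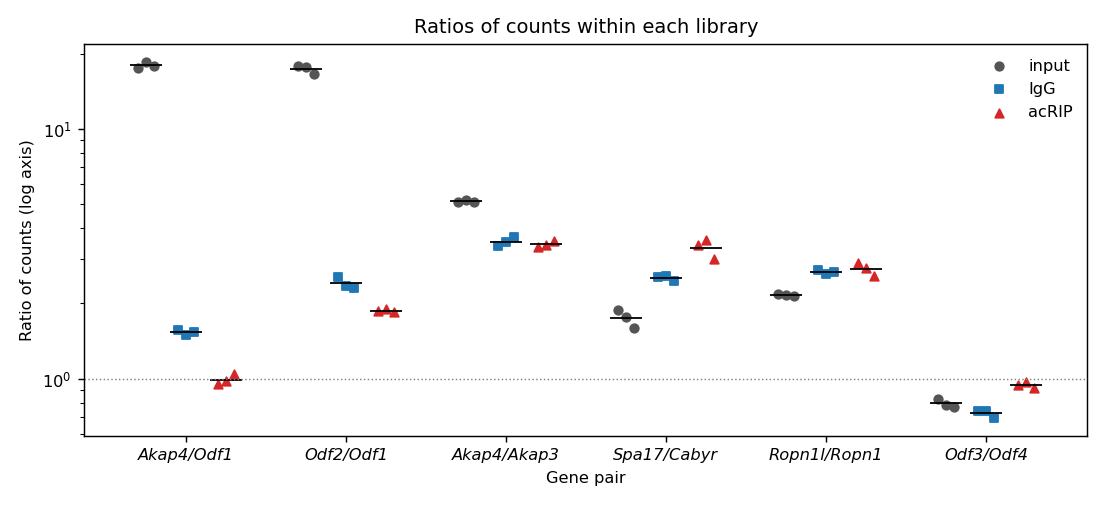
Ratio of raw counts of 6 gene pairs within each of the 9 libraries (log axis; dotted line at 1), with input in grey circles, IgG in blue squares, acRIP in red triangles and a line at each group mean. The ratio of Akap4 to Odf1 drops from near 18 in input to near 1 in acRIP, and most of the drop lies between input and IgG.

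Per length, Ropn1l was the most abundant of the 10 transcripts in input at 2002 ± 62.3 FPKM (SD, n = 3), which placed it 14 among 55401 genes. It was followed by Akap4 at 1047 ± 26.1, Ropn1 at 660.4 ± 16.5 and Spa17 at 649.6 ± 48.0. The libraries of Ropn1 and Spa17 overlapped. Odf2 followed at 309 ± 7.09, Odf4 at 259.7 ± 1.07 and Akap3 at 196 ± 5.97. Odf1 at 159.5 ± 5.39 and Cabyr at 158 ± 2.77 overlapped, and Odf3 was the lowest by this length at 117 ± 4.72. These are levels in whole testis, where fewer cells of a type and less RNA per cell cannot be told apart.

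The order changed in the precipitated RNA mainly through Odf1 and Akap4. Odf1 moved from 8 among the 10 genes in input to 2 in IgG, at 811 ± 18.4 FPKM, and stayed at 2 in acRIP, at 1047 ± 12.1. Among all genes its place went from 576 to 49 and 37. Akap4 moved from 2 to 5 in both, at 454 ± 1.17 in IgG and 379 ± 12.0 in acRIP, and its place among all genes went from 32 to 129 and 180. Ropn1l stayed the highest, at 2077 ± 74.7 and 2095 ± 60.1, and Odf3 the lowest, at 87.7 ± 3.14 and 98.2 ± 4.47. In IgG, the libraries of Odf2 and Odf4 overlapped, as did those of Cabyr and Akap3. Together the 10 genes took 1.133% to 1.161% of all counts in input, 0.8887% to 0.9288% in IgG and 0.9054% to 0.9289% in acRIP. The length used matters for the order, since merged exons of all isoforms can be longer than the transcript with the longest coding sequence (9919 against 3188 bases in Odf2). By transcript length the input level was 960.1 in place of 308.6 FPKM for Odf2, 1014 in place of 660.4 for Ropn1 and 990.2 in place of 649.6 for Spa17. The highest 7 genes kept their places by transcript length, and Cabyr at 186, Odf3 at 159.8 and Odf1 at 159.5 came last.

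**Figure D4:**
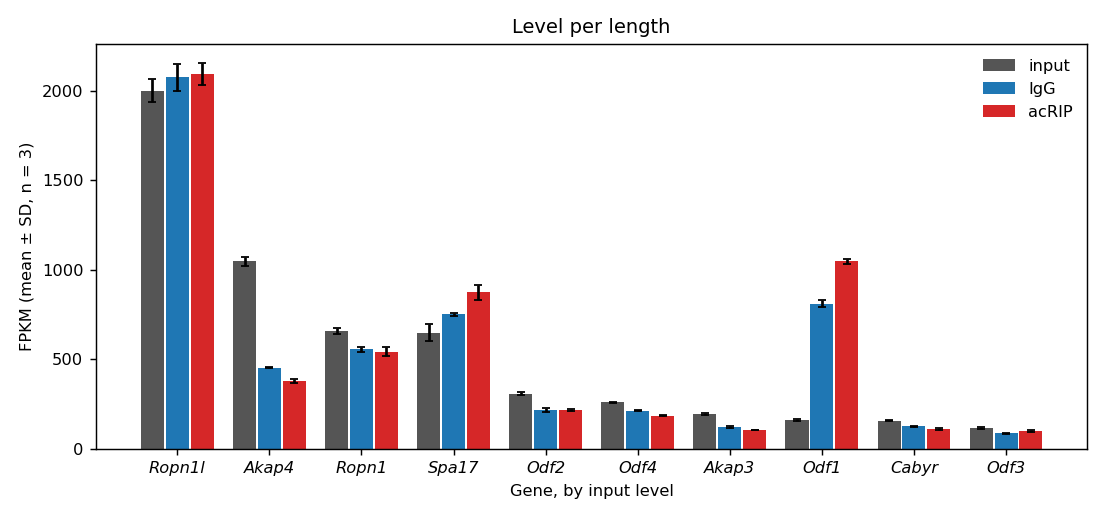
FPKM of the 10 genes (mean, with error bars of 1 SD over 3 libraries) in input (grey), IgG (blue) and acRIP (red), ordered by the input level. The bars of Odf1 rise from the low end of the order to the height of Akap4 in input, and those of Akap4 shrink to 379 FPKM in acRIP.

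Features of the transcripts that had no part in choosing the genes were set beside these changes. Coding length varied from 450 bases in Spa17 to 2595 in Akap3, and the genes that rose in the precipitated RNA were among those with short coding sequences. The 3 genes higher than input, Spa17, Ropn1l and Odf1, had 450, 657 and 747 coding bases, but Ropn1, Odf3 and Odf4 with 639, 843 and 873 were lower than input. The 3 genes with the longest coding sequences, Odf2, Akap4 and Akap3 (2493, 2550 and 2595 bases), had the 3 lowest values in IgG over input. In acRIP over input, Akap4 and Akap3 had the lowest values, while Cabyr with 1362 coding bases was at -0.43 and Odf2 at -0.42. Spearman's rho between coding length and log2 fold change across the 10 genes was -0.87 in IgG over input, -0.85 in acRIP over input and -0.72 in acRIP over IgG. Without Odf1 it was -0.92, -0.92 and -0.77. Whole transcript length gave -0.81, -0.71 and -0.47 across the 10 genes, so the part of the coding sequence alone cannot be told apart. The relation with coding length was not seen more widely, with rho of -0.02, -0.04 and -0.04 across 15526 tested coding genes and of -0.17, -0.10 and 0.09 across 33 other sperm tail genes. The relation was found among 15 of its kind (5 features in 3 comparisons), the values share libraries and scaling, and genes are not independent replicates, so it is a description of these 10 genes.

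**Figure D5:**
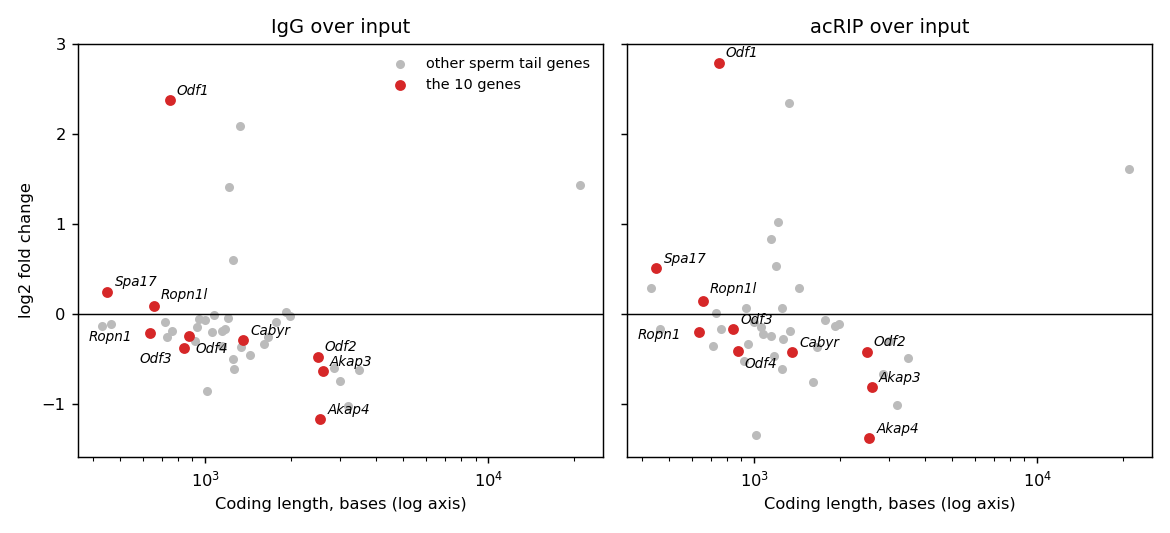
Coding length (log axis) and log2 fold change over input of the 10 genes (red, named) and of 33 other sperm tail genes (grey), in IgG (left) and acRIP (right). The red points descend from Odf1 and Spa17 at the left to Akap4 at the right, while rho was -0.17 and -0.10 for the grey points, which include Fsip2 at 20988 bases.

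The cytidine content of the 10 transcripts did not order their changes in the same way. It ranged from 21.89% in Akap4 to 31.35% in Odf3, where the median of 15526 tested coding genes was 24.62%, and rho with the log2 fold change was 0.37 in acRIP over IgG and 0.39 in acRIP over input. The letters CNCAGNNC, searched on the transcript strand with overlapping matches allowed, occurred in 8 of the 10 transcripts and in 93.6% of the tested coding genes. Their density was 0 in Akap4 and Ropn1, 0.314 per 1000 bases in Odf2, 2.72 in Odf1, 5.30 in Odf3 and 7.32 in Ropn1l, beside a median of 1.67. Odf3, at the 98.7 percentile for density, was 1.16-fold higher in acRIP than in IgG, and Odf1, whose 3 matches all lie outside the coding sequence, was 1.34-fold higher. The rho between density and log2 fold change was 0.31 in acRIP over IgG and 0.34 in acRIP over input.

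Of 34 other genes of the tail that were listed by function, 33 were tested and Odf3l2 had no count. In acRIP against IgG, 12 of the 33 passed as higher and 10 as lower, in acRIP against input 7 and 19, and in IgG against input 4 and 20. The shares of all tested genes were 26.4% and 37.6%, 32.0% and 40.3%, and 25.9% and 26.0%. Their median log2 fold changes were 0.00, -0.17 and -0.20. By group, the relatives and partners of the outer dense fibres (8 tested) had 2 higher and 3 lower in acRIP over IgG and 0 higher and 6 lower in acRIP over input. The partners of the fibrous sheath (11) had 3 and 3 against IgG, and 2 and 7 against input. The subunits of protein kinase A (6) had 3 and 2, and 3 and 1, and the genes of the midpiece sheath and annulus (8) had 4 and 2, and 2 and 5.

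A pattern like that of Odf1, high in both precipitated groups, was seen in 3 of these partners. Gapdhs, the sperm glycolytic enzyme bound to the fibrous sheath, had 109, 97.7 and 96.0 scaled CPM in input, 431, 427 and 437 in IgG, and 524, 532 and 487 in acRIP. Its log2 fold change was 2.35 over input (SE 0.05, adjusted p = 1.73e-28) and 0.25 over IgG (SE 0.04, adjusted p = 1.12e-05). Fsip2, a very long protein that interacts with Akap4, was higher in acRIP than in input by 1.61 (SE 0.05, adjusted p = 4.4e-24), and by 1.43 in IgG over input (SE 0.05, adjusted p = 9.3e-23). Prkar2a, a regulatory subunit of protein kinase A, was higher in acRIP than in input by 1.03 (SE 0.06, adjusted p = 1.34e-16) but stood at -0.38 over IgG (SE 0.06, adjusted p = 6.35e-07).

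At the low end, as for Akap4, Tssk4, a spermatid kinase that phosphorylates Odf2, stood at -1.35 over input in acRIP (SE 0.06, adjusted p = 1.39e-19) and at -0.48 over IgG (SE 0.06, adjusted p = 3.37e-08). Fscb, a calcium-binding partner of Cabyr, stood at -1.02 over input in acRIP (SE 0.04, adjusted p = 9.6e-21) and did not pass against IgG (0.00, SE 0.04, adjusted p = 0.965). Akap14 stood at -0.76 over input (SE 0.15, adjusted p = 5.43e-05). The highest values over IgG were those of Prkar1b at 1.03 (SE 0.17, adjusted p = 5.71e-06), Sept4, a septin of the annulus, at 0.74 (SE 0.06, adjusted p = 8.42e-12) and Prkacb at 0.58 (SE 0.16, adjusted p = 0.00177). Prkar2b had the lowest, at -0.53 (SE 0.18, adjusted p = 0.0106). Prkar1b thus exceeded all 10 tail genes over IgG, though it had only 5.83 to 16.1 scaled CPM in any library. Prkacb (8.08 to 13.6), Prkar2b (6.33 to 14.5) and Akap14 (8.63 to 18.1) were similarly low.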

How the data were processed

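Poly(A) RNA of wild-type mouse testis was measured in 9 libraries (3 input, 3 IgG, 3 acRIP), grouped by their labels. The authors trimmed reads with Trim Galore 0.6.7, mapped them to mm10 with STAR 2.7.10a and deposited counts of uniquely mapped reads per gene from featureCounts 2.0.2, with each gene's merged exon length, without normalization. The annotation release, strand use and whether mates were counted separately are not given in the sources used here. Uniquely mapped reads can undercount near-identical copies, and even low counts point to fewer fragments than counts. Counting error is only part of the error.

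Gene names, exons and sequences came from GENCODE vM21, which held 55141 of 55401 identifiers without their version. Of each gene, the coding transcript with the longest coding sequence was used. The test of counts was edgeR 4.0.16 in R 4.3.3 (filterByExpr, TMM, quasi-likelihood), with 1 mean per group. Standard errors are the absolute log2 fold change over the square root of F. On simulated counts of acRIP over IgG, 200 of 200 genes changed 4-fold were recovered among 21603, with 3 false calls. No smaller change was simulated, so the simulation does not bear on the small differences of the tail genes from IgG. FPKM was tested with limma 3.58.1 on log2(FPKM + 1), which understates changes of low genes. DESeq2 1.42.0 served as an alternative.

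All 10 genes were named, and of the other tail genes the 3 highest and 3 lowest past the test without overlap of libraries in acRIP over IgG and over input. Members and lists were chosen with earlier results of these data known. The alternatives with ribosomal RNA-like loci left out and with transcript length were added after seeing the data. Windows on chromosome 18 were not read. Figures were made with Python 3.11.15.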

Additional observations from a re-analysis of the deposited data

How the results depend on the processing

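In the tests of counts, the 7 genes lower and Odf1 and Spa17 higher than input kept direction and call under every alternative except the test against a fold of 2, which only Odf1 and Akap4 passed. In acRIP over IgG, the tests of counts kept the calls of Odf1, Odf3, Spa17, Odf4, Akap3 and Akap4 likewise, of which none passed the test against a fold of 2. By FPKM, limma's adjusted p lost the threshold against IgG for Odf3 (0.156), Spa17 (0.0907) and Cabyr (0.0964) with a pseudocount of 0.1, for Odf3 (0.0552 to 0.122) without input replicate 2, IgG replicate 2 or 3 or acRIP replicate 1 or 2, and for Spa17 (0.0636 to 0.0837) without IgG replicate 2 or 3 or acRIP replicate 1 or 2. With totals without ribosomal RNA-like loci it was 0.228 for Odf3 and 0.0628 for Ropn1 against input and 0.106 for Cabyr against IgG, and Ropn1l passed against input (0.00404). In acRIP over IgG, 3 genes passed as higher, and 5 under DESeq2, relative log expression factors, upper quartile factors, no filter on low counts, only the 6 libraries compared and ribosomal RNA-like loci left out, and 3 to 5 with 1 library left out in turn. Ropn1l was not called against input with library totals (0.06, adjusted p = 0.072). The log2 fold change of Ropn1l in IgG over input turned to -0.0141 with upper quartile factors. That of Ropn1 in acRIP over IgG turned to -0.0332 with library totals and ranged from -0.0027 to 0.0597 with 1 library left out in turn (negative without IgG replicate 3). Log2 ratios of FPKM in acRIP over IgG near 0 also changed sign. With 1 library left out in turn they ranged from -0.0278 to 0.0347 for Odf2 (negative without IgG replicate 3, acRIP replicate 1 or acRIP replicate 2, at -0.0278, -6e-04 and -0.0074), from -0.0093 to 0.0412 for Ropn1l (negative without IgG replicate 3 or acRIP replicate 2, at -0.0093 and -0.007) and from -0.0579 to 0.005 for Ropn1 (positive without acRIP replicate 1), and Ropn1 was at 0.0525 with totals without ribosomal RNA-like loci. The cause was not tested. The ratio of the highest to the lowest input level was 17.1, and 12.6 with transcript length.

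Whether replicate numbers pair the libraries was not settled. Deviations of libraries with the same number correlated at -0.007 to 0.059, and those with different numbers at -0.056 to 0.053. In 10 of 18 cases the best correlation was with the library of the same number. With a replicate block 5 genes were higher in acRIP than in IgG, and no other count of the 10 genes changed.

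Requiring 10 counts in every library lowered the number of genes tested from 22510 to 16047, so calls before and after it are out of unlike totals. Under it, calls of lower genes went from 8472 to 5276 in acRIP over IgG and from 9072 to 5755 in acRIP over input. Calls over 2-fold, higher and lower, went from 2590 and 4701 to 1200 and 1427 in acRIP over IgG, from 3984 and 5145 to 2495 and 1852 in acRIP over input and from 3028 and 1626 to 1906 and 611 in IgG over input. Testing against a fold of 2 left 1526 of 5948 higher and 3600 of 8472 lower, 2731 of 7204 and 3973 of 9072, and 1724 of 5827 and 563 of 5857. Upper quartile factors moved the median of all genes in IgG over input from -0.01 to -0.11. Every member had at least 2742 counts in every library, so depth limits the calls of the 10 genes little.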
